A study of Mus musculus with 8 samples.

Results

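Tgm1, Tgm3, Tgm5, Alox12b, Aloxe3, Casp14, Asprv1, Abca12, Hal and Trex2 are the 10 skin barrier enzymes followed here. They were chosen by name, with earlier results of these data known, and all 10 were among the 25466 genes of the count table. They were examined by RNA-seq in 8 libraries of medullary thymic epithelial cells (mTECs), sorted from wild-type mice of the BL6N6 strain aged 4 to 6 weeks. Thymic stromal cells were depleted of CD45+ cells, gated as CD45neg Epcampos CDR1neg and sorted by surface Tspan8, a tetraspanin that served as an example of a tissue-restricted antigen, and by MHCII. The 4 subsets, each with 2 biological replicates, were Tspan8negMHCIIlo, Tspan8negMHCIIhi, Tspan8posMHCIIhi and Tspan8posMHCIIlo, and none carried an engineered allele or a treatment. The sort has limits, since the MHCIIlo gate holds immature together with late mTECs, and since the sources do not say whether libraries with the same replicate number came from the same mice.

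In the epidermis, keratinocytes that reach the surface turn into corneocytes, dead cells with a cross-linked protein envelope, a bound lipid layer and a core of keratin and degraded filaggrin. Transglutaminases tie envelope proteins to each other, lipoxygenases and a lipid transporter supply the lipid layer, and proteases, a histidine-degrading enzyme and a nuclease act on filaggrin, free amino acids and DNA. In the thymus, mTECs transcribe many genes that belong to peripheral tissues, skin among them, and some late mTECs take on a programme that resembles cornifying keratinocytes.

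Library totals ran from 1941518 to 7783841 counts with a median of 4857084, and 3 counts, the floor used here, were worth 0.385 to 1.65 CPM (counts relative to the TMM-scaled library total). All 10 enzymes passed the filter on low counts, which left 17006 genes, although Casp14 was below its level of 2.07 CPM in Tspan8negMHCIIlo and Trex2 in both Tspan8neg subsets. Transcripts of the sorted markers followed the sort. Tspan8 was at 347 to 404 CPM in the Tspan8pos libraries and at 3.65 to 14.6 CPM in the Tspan8neg libraries, and H2-Ab1, which encodes a chain of MHCII, was at 2431 to 5098 CPM in the MHCIIhi libraries and at 489 to 2074 CPM in the MHCIIlo libraries. The 11 mTEC markers summed to 5178 to 7609 CPM in the 4 Tspan8neg libraries and to 8575 to 10199 CPM in the 4 Tspan8pos libraries. By the test described below, single mTEC markers went both ways. In Tspan8pos mTECs, 4 were higher and 3 lower within MHCIIlo, and 3 were higher and 3 lower within MHCIIhi. The Tspan8negMHCIIlo libraries stood apart, since their 13 thymocyte markers summed to 534 and 1518 CPM against 80.7 to 259 CPM elsewhere, their 6 B cell markers to 487 and 850 CPM against 45.2 to 157 CPM, and their 7 markers of cortical epithelium to 1201 and 960 CPM against 450 to 553 CPM. No marker of these 3 lists was at 0 in both libraries of a subset. The 5 endothelial markers were higher there too in sum, at 139 and 93.6 CPM against 13.9 to 72.6 CPM elsewhere, with Emcn at 0 in both Tspan8posMHCIIhi libraries. Single thymocyte, B cell and cortical markers did not all follow their sums by the test described below. At high MHCII in Tspan8neg mTECs, 9 of 12 tested thymocyte, 1 of 6 B cell and 2 of 7 cortical markers were lower. In the same comparison 2 cortical markers were higher. In Tspan8pos mTECs within MHCIIlo, 6 thymocyte, 2 B cell and 4 cortical markers were lower, and 1 B cell marker was higher. The 6 fibroblast markers summed to 110 to 197 CPM in the 4 Tspan8neg libraries and 65.0 to 89.5 CPM in the 4 Tspan8pos libraries. Of these 6, 1 was called lower in Tspan8pos mTECs within MHCIIlo and 2 within MHCIIhi. In Tspan8neg mTECs, 2 were higher and 2 lower at high MHCII. Replicate 2 of Tspan8negMHCIIlo held the higher thymocyte and B cell sums and the higher Tspan8 level (14.6 against 3.65 CPM). The 2 libraries of this subset differed most among replicates, with a chi-square of 10.6 per gene against 3.47 to 5.63 in the other subsets. The part of these differences in the enzymes' levels was not tested, and results that use Tspan8negMHCIIlo are given without one of its libraries where a call changed or a fold moved most.

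All 10 skin barrier enzymes were higher in Tspan8pos than in Tspan8neg mTECs at low MHCII, and 8 of the 10 were at high MHCII. Called genes had an adjusted p under 0.01 in edgeR's quasi-likelihood test, Benjamini-Hochberg adjusted over all 17006 genes, and at least a 2-fold difference. Of all tested genes, 12.1 percent were called higher and 9.34 percent lower within MHCIIlo (21.4 percent in all), and 11 percent were called higher and 7.45 percent lower within MHCIIhi (18.5 percent in all). The median log2 fold change of the enzymes was 4.71 within MHCIIlo and 2.81 within MHCIIhi, where the medians of all tested genes were -0.03 and -0.03. As these were bulk libraries, more cells that transcribe an enzyme and more RNA per cell cannot be told apart. Only some of the enzymes were called between MHCII levels. In Tspan8neg mTECs, Hal, Tgm5, Casp14, Tgm3, Alox12b and Asprv1 were higher at high MHCII, whereas Tgm1, Aloxe3, Abca12 and Trex2 were not called. Those not called were not alike, with log2 values of -1.04 for Tgm1, 0.73 for Aloxe3, 0.63 for Abca12 and 2.52 for Trex2. The value of Trex2 rests on 2 counts in all in Tspan8negMHCIIlo.

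**Figure D1:**
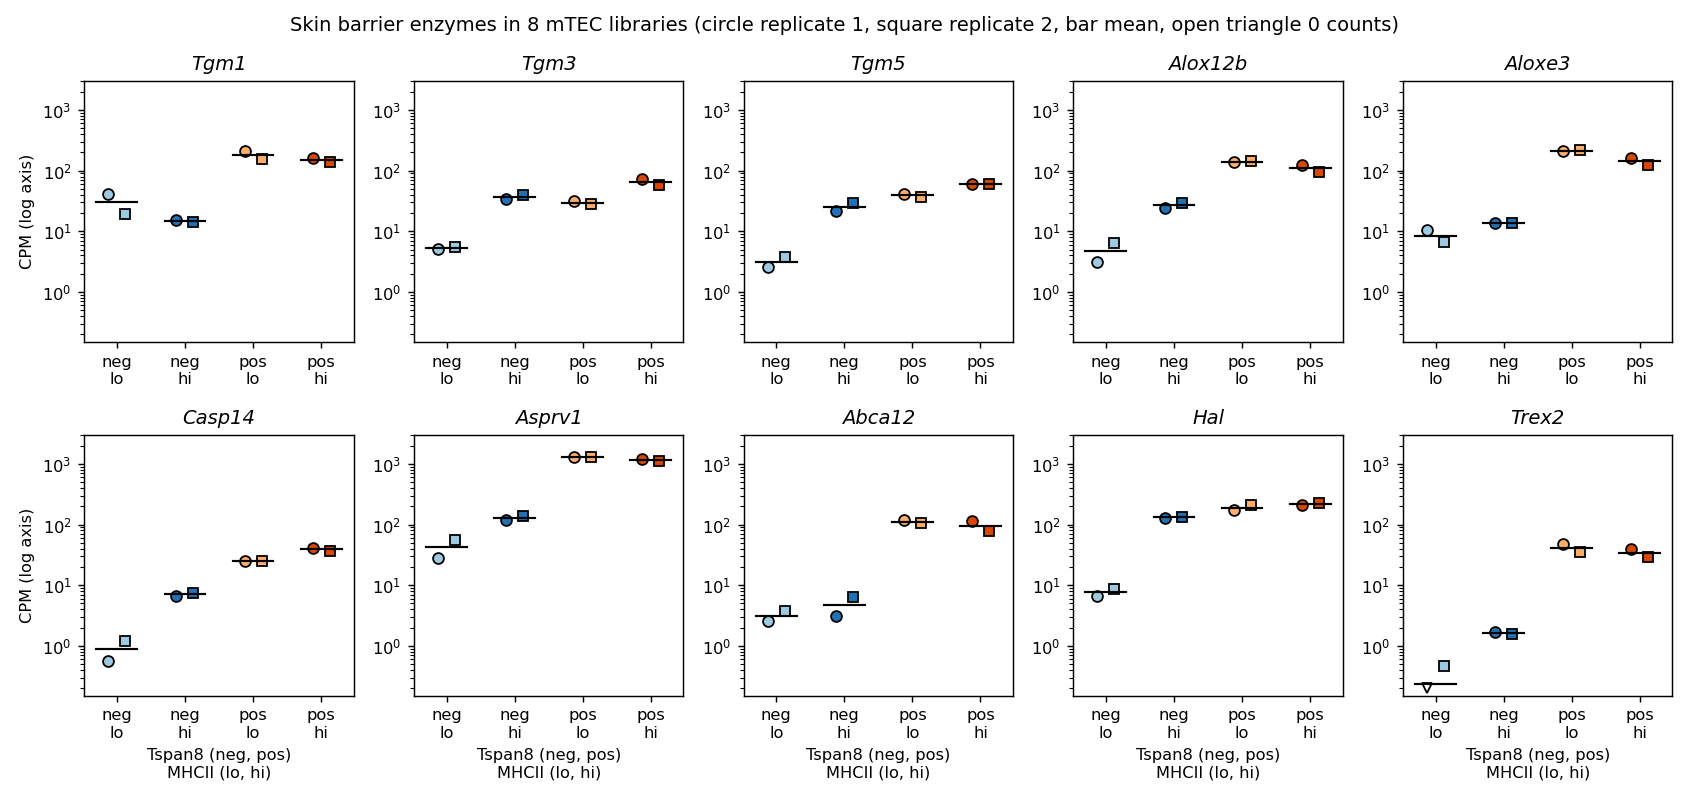
CPM (log axis) of the 10 skin barrier enzymes in each of the 8 mTEC libraries, by subset on the x axis, with circles for replicate 1, squares for replicate 2, bars for the mean and an open triangle at the bottom for a count of 0. Asprv1 reached 1312 CPM and was the most abundant, Trex2 was at 0 or near it in Tspan8neg mTECs, and Hal stood at 129 and 134 CPM already in Tspan8negMHCIIhi.

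Among the transglutaminases, Tgm1 (chr14:55700009-55713926, minus strand, GRCm38) encodes the membrane-bound enzyme that cross-links the cornified envelope of keratinocytes. Tgm1 was at 41.9 and 19.1 CPM in replicates 1 and 2 of Tspan8negMHCIIlo, at 15.4 and 14.0 CPM in Tspan8negMHCIIhi, at 161 and 137 CPM in Tspan8posMHCIIhi and at 207 and 155 CPM in Tspan8posMHCIIlo. Every Tspan8pos library lay above every Tspan8neg library, while the Tspan8pos subsets overlapped. Tspan8pos exceeded Tspan8neg mTECs by a log2 fold change of 2.57 ± 0.29 (SE) within MHCIIlo (adjusted p = 4.26e-05, and 3.22 without replicate 1 of Tspan8negMHCIIlo) and of 3.35 ± 0.30 within MHCIIhi (adjusted p = 8.36e-06, edgeR). Tgm1 was the only one of the 10 with its lowest mean in Tspan8negMHCIIhi. Its MHCIIhi level relative to MHCIIlo in Tspan8neg mTECs had a log2 value of -1.04 ± 0.31 and was not called (adjusted p = 0.0201). Without replicate 2 of Tspan8negMHCIIlo this value was -1.53 and was called (adjusted p = 0.000117, edgeR), and without replicate 1 it was nearest to 0, at -0.40. The span of a gene annotated on the opposite strand, Gm49067, overlaps that of Tgm1, introns included. Whether their exons overlap was not examined. If they do, their reads could not be told apart unless the counting used strand.

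Tgm3 (chr2:130012349-130050399, plus strand) and Tgm5 (chr2:121046111-121085841, minus strand) encode transglutaminases that act inside differentiating keratinocytes, and Tgm3 also acts in the hair follicle. Tgm3 was at 5.06 and 5.42 CPM in Tspan8negMHCIIlo, at 34.5 and 39.9 CPM in Tspan8negMHCIIhi, at 71.7 and 58.9 CPM in Tspan8posMHCIIhi and at 31.3 and 28.3 CPM in Tspan8posMHCIIlo. The MHCIIhi libraries were thus above the MHCIIlo libraries whatever their Tspan8 level, an order no other enzyme had. The log2 fold change of Tgm3 between MHCIIhi and MHCIIlo was 2.82 ± 0.22 in Tspan8neg mTECs (adjusted p = 4.67e-06) and 1.15 ± 0.18 in Tspan8pos mTECs (adjusted p = 0.0012). Tgm3 was higher in Tspan8pos mTECs within MHCIIlo, with a log2 fold change of 2.48 ± 0.23 (adjusted p = 1e-05). Within MHCIIhi, where the log2 fold change was 0.81 ± 0.17 (adjusted p = 0.00285, edgeR), it fell short of 2-fold.

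Tgm5 was at 2.53 and 3.77 CPM in Tspan8negMHCIIlo, at 21.8 and 29.1 CPM in Tspan8negMHCIIhi, at 60.9 and 60.5 CPM in Tspan8posMHCIIhi and at 40.7 and 37.1 CPM in Tspan8posMHCIIlo. No 2 subsets overlapped. Tgm5 was higher in Tspan8pos mTECs by a log2 fold change of 3.58 ± 0.27 within MHCIIlo (adjusted p = 1.96e-06) and of 1.24 ± 0.19 within MHCIIhi (adjusted p = 0.000364, edgeR). The second call was lost without replicate 1 of Tspan8negMHCIIhi, at 0.98 with an adjusted p of 0.0127. In Tspan8neg mTECs Tgm5 was 7.99-fold higher at high MHCII (adjusted p = 1.05e-05), and in Tspan8pos mTECs its value of 0.66 ± 0.19 was not called (adjusted p = 0.0358). The spans of genes on the opposite strand overlap those of Tgm3 (Mir6339) and Tgm5 (Gm14213, a processed pseudogene). Overlap of exons was not examined here either, so any effect on the counts of Tgm3 and Tgm5 is not known.

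Levels per transcript length (counts per kilobase of the longest transcript, scaled to the same total in each library) allow the 3 enzymes to be set against the 9 genes of their family. Tgm1 held 38.1% and 25.3% of the family's per-length level in Tspan8negMHCIIlo, 9.58% and 7.28% in Tspan8negMHCIIhi, 27.9% and 22.8% in Tspan8posMHCIIhi and 45.5% and 38.3% in Tspan8posMHCIIlo. The share of Tgm1 was thus lowest in Tspan8negMHCIIhi, in both libraries. There Tgm3 held 14.8% and 14.3% and Tgm5 14.8% and 16.6%, so that each exceeded Tgm1, and in no other subset did either do so. The per-length level of Tgm3 was 1.55 and 1.97 times that of Tgm1 in Tspan8negMHCIIhi, and between 0.083 and 0.307 times it in the other 6 libraries. Tgm2, the widely expressed tissue transglutaminase, held 36.4% to 57.4% in all 8 libraries.

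**Figure D2:**
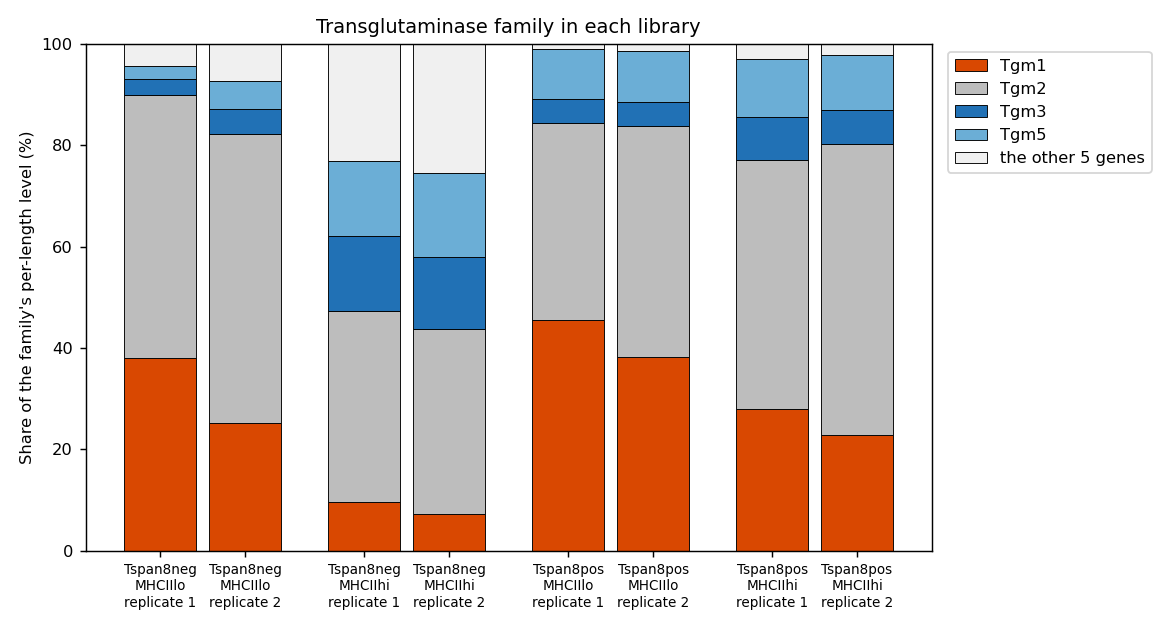
Share of the transglutaminase family's summed per-length level (%) held by Tgm1, Tgm2, Tgm3, Tgm5 and the other 5 genes together, 1 stacked bar for each library. Tgm1 held 9.58% and 7.28% in the Tspan8negMHCIIhi libraries, where Tgm3 and Tgm5 each held 14.3% to 16.6%.

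Alox12b and Aloxe3 lie next to each other on chromosome 11 (chr11:69156989-69169792 and chr11:69125896-69149115, both plus strand) and encode the epidermal lipoxygenases that act in turn on the linoleate of acylceramides. Alox12b was at 3.09 and 6.37 CPM in Tspan8negMHCIIlo, at 24.1 and 29.2 CPM in Tspan8negMHCIIhi, at 124 and 95.5 CPM in Tspan8posMHCIIhi and at 137 and 143 CPM in Tspan8posMHCIIlo. Aloxe3 was at 10.4 and 6.60 CPM, 13.9 and 13.8 CPM, 163 and 124 CPM, and 212 and 217 CPM in the same order of subsets. Both were highest in Tspan8posMHCIIlo, and of the pair only Alox12b was called between the Tspan8neg subsets. Its log2 fold change between MHCIIhi and MHCIIlo in Tspan8neg mTECs was 2.47 ± 0.28 (adjusted p = 5.79e-05), against 0.73 ± 0.25 for Aloxe3, which was not called (adjusted p = 0.0349, edgeR). Whether the 2 genes differed from each other was not tested. The ratio of their per-length levels, Alox12b to Aloxe3, was 3.34 and 4.07 in Tspan8negMHCIIhi, 1.46 and 1.48 in Tspan8posMHCIIhi and 1.25 and 1.27 in Tspan8posMHCIIlo. In Tspan8negMHCIIlo, where counts were lowest, the ratio was 0.573 and 1.86, so that the replicates did not give its direction.

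The Tspan8 difference of the lipoxygenases was large at both MHCII levels. Alox12b was 28.8-fold higher in Tspan8pos mTECs within MHCIIlo (log2 4.85 ± 0.27, adjusted p = 2.92e-07) and 4.08-fold higher within MHCIIhi (log2 2.03 ± 0.21, adjusted p = 2.11e-05). Aloxe3 was 25.5-fold higher within MHCIIlo (log2 4.67 ± 0.22, adjusted p = 1.6e-07) and 10.3-fold higher within MHCIIhi (log2 3.37 ± 0.20, adjusted p = 5.43e-07, edgeR). Without replicate 2 of Tspan8negMHCIIlo the log2 value of Alox12b within MHCIIlo was 5.49, and that between MHCII levels in Tspan8neg mTECs was 3.10. Abca12 (chr1:71242276-71414910, minus strand) encodes the transporter that loads glucosylceramides into the lamellar granules of keratinocytes. It was at 2.53 and 3.77 CPM in Tspan8negMHCIIlo, at 3.12 and 6.28 CPM in Tspan8negMHCIIhi, at 113 and 76.8 CPM in Tspan8posMHCIIhi and at 117 and 105 CPM in Tspan8posMHCIIlo. Abca12 thus had 2 levels, one in each Tspan8 state, with overlap between the MHCII levels of either. Its fold change was 34.1 within MHCIIlo (log2 5.09 ± 0.33, adjusted p = 8.24e-07) and 19.0 within MHCIIhi (log2 4.25 ± 0.29, adjusted p = 1.18e-06, and 4.84 without replicate 2 of Tspan8negMHCIIhi). The MHCII comparison gave a log2 value of 0.63 ± 0.43 in Tspan8neg mTECs (adjusted p = 0.268) and of -0.21 ± 0.23 in Tspan8pos mTECs (adjusted p = 0.588, edgeR).

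Asprv1 (chr6:86628164-86629710, plus strand) encodes an aspartic protease that cuts profilaggrin. It was the most abundant of the 10 per transcript length, with a mean per-length level of 1039 over the 8 libraries against 80.8 for Tgm1, the next. Asprv1 was at 28.1 and 56.6 CPM in Tspan8negMHCIIlo, at 120 and 136 CPM in Tspan8negMHCIIhi, at 1205 and 1116 CPM in Tspan8posMHCIIhi and at 1312 and 1284 CPM in Tspan8posMHCIIlo. It was higher in Tspan8pos mTECs by 30.4-fold within MHCIIlo (log2 4.93 ± 0.27, adjusted p = 2.66e-07) and by 9.03-fold within MHCIIhi (log2 3.17 ± 0.24, adjusted p = 2.57e-06). In Tspan8neg mTECs it was higher at high MHCII (log2 1.59 ± 0.24, adjusted p = 0.000374), and in Tspan8pos mTECs the value was -0.16 ± 0.22 (adjusted p = 0.687, edgeR). Without replicate 2 of Tspan8negMHCIIlo, the log2 value was 5.53 for Tspan8 within MHCIIlo and 2.18 for MHCII in Tspan8neg mTECs.

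Casp14 (chr10:78711991-78718294, minus strand) encodes a caspase of cornifying cells that takes part in filaggrin breakdown rather than in apoptosis. It was at 0.56 and 1.18 CPM (2 and 5 counts) in Tspan8negMHCIIlo, at 6.65 and 7.56 CPM in Tspan8negMHCIIhi, at 41.0 and 36.8 CPM in Tspan8posMHCIIhi and at 24.7 and 24.7 CPM in Tspan8posMHCIIlo. No 2 subsets overlapped, and the libraries of Tspan8posMHCIIlo differed by less than those of any other subset. Casp14 was higher in Tspan8pos mTECs within MHCIIlo (log2 4.75 ± 0.35, adjusted p = 1.84e-06) and within MHCIIhi (log2 2.44 ± 0.23, adjusted p = 1.17e-05). It was higher at high MHCII in Tspan8neg mTECs (log2 2.96 ± 0.39, adjusted p = 0.000135), while in Tspan8pos mTECs the log2 value of 0.65 ± 0.21 was not called (adjusted p = 0.0591, edgeR). Its log2 values that use Tspan8negMHCIIlo were 5.40 for Tspan8 and 3.61 for MHCII without replicate 2 of that subset.

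Hal (chr10:93488768-93519304, plus strand) encodes histidine ammonia-lyase, which turns the histidine freed from filaggrin into urocanic acid. It was at 6.74 and 8.72 CPM in Tspan8negMHCIIlo, at 129 and 134 CPM in Tspan8negMHCIIhi, at 213 and 229 CPM in Tspan8posMHCIIhi and at 173 and 206 CPM in Tspan8posMHCIIlo. Tspan8negMHCIIlo alone was low, and the other 3 subsets lay within a narrow range without overlap between Tspan8neg and Tspan8pos. Hal had the largest MHCII difference of the 10 in Tspan8neg mTECs, 16.9-fold (log2 4.08 ± 0.19, adjusted p = 4.41e-07), and in Tspan8pos mTECs the log2 value was 0.22 ± 0.14 (adjusted p = 0.353). Its Tspan8 difference was 24.4-fold within MHCIIlo (log2 4.61 ± 0.19, adjusted p = 9.16e-08). Within MHCIIhi it was 1.68-fold (log2 0.75 ± 0.14), which had an adjusted p of 0.00175 but did not reach 2-fold (edgeR).

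Trex2 (chrX:73433705-73435344, minus strand) encodes a DNA exonuclease of keratinocytes. It had 0 and 2 counts in Tspan8negMHCIIlo (0 and 0.47 CPM), 8 and 12 counts in Tspan8negMHCIIhi (1.66 and 1.54 CPM), 196 and 144 counts in Tspan8posMHCIIhi (39.0 and 29.3 CPM) and 86 and 258 counts in Tspan8posMHCIIlo (47.3 and 35.2 CPM). The Tspan8neg libraries were at most at 1.66 CPM, and the 2 Tspan8pos subsets overlapped. Because Tspan8negMHCIIlo held 2 counts in all, its difference is given as a ratio of pooled counts, 147 for Tspan8posMHCIIlo (95% interval 40.3 to 1217, for counting error only). With 1 library left out at a time, the fitted log2 fold change for Tspan8 within MHCIIlo ran from 6.32 to 10.7. That between MHCII levels in Tspan8neg mTECs ran from 1.69 to 6.01. Trex2 was called within MHCIIlo (adjusted p = 1.61e-06) and within MHCIIhi, where it was 21.2-fold higher in Tspan8pos mTECs (adjusted p = 3.75e-06). Tspan8negMHCIIhi exceeded Tspan8negMHCIIlo by a pooled ratio of 6.19 (95% interval 1.503 to 54.6) and was not called (adjusted p = 0.0274, edgeR). Among 11 DNA-degrading nucleases, Trex2 held 11.8% to 16.7% of the summed per-length level in the Tspan8pos libraries and at most 0.96% in the Tspan8neg libraries.

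The MHCII comparisons had a different reach in the 2 Tspan8 states. In Tspan8neg mTECs, 6 of the 10 enzymes were higher at high MHCII and none was lower, at a background of 13.1 percent of genes called higher and 9.67 percent lower (22.7 percent in all). In Tspan8pos mTECs, 1 of the 10, Tgm3, was higher at a background of 4.59 percent called higher and 2.62 percent lower (7.21 percent in all), and that call was lost without replicate 1 of Tspan8posMHCIIhi (log2 1.02, adjusted p = 0.0172) or replicate 2 of Tspan8posMHCIIlo (log2 1.06, adjusted p = 0.0369, edgeR). The other 9 had log2 values between -0.58 and 0.66 there. Aloxe3, at -0.58 ± 0.17 (adjusted p = 0.0407), was lowest, and no enzyme was called lower at high MHCII in either Tspan8 state. The 8 markers of dendritic cells and macrophages summed to 315 to 485 CPM in the MHCIIhi libraries. In the MHCIIlo libraries their sums were 76.7 to 124 CPM, and none was at 0 in both libraries of a subset. Of 7 tested, 4 were called higher at high MHCII in Tspan8neg mTECs and 1 in Tspan8pos mTECs, and none was lower. In Tspan8pos mTECs, 3 were lower within MHCIIhi and 1 within MHCIIlo. The part of these markers in the results was not tested. The smallest exact p that 2 libraries against 2 could reach was 0.333, so the calls rest on the spread shared across genes.

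**Figure D3:**
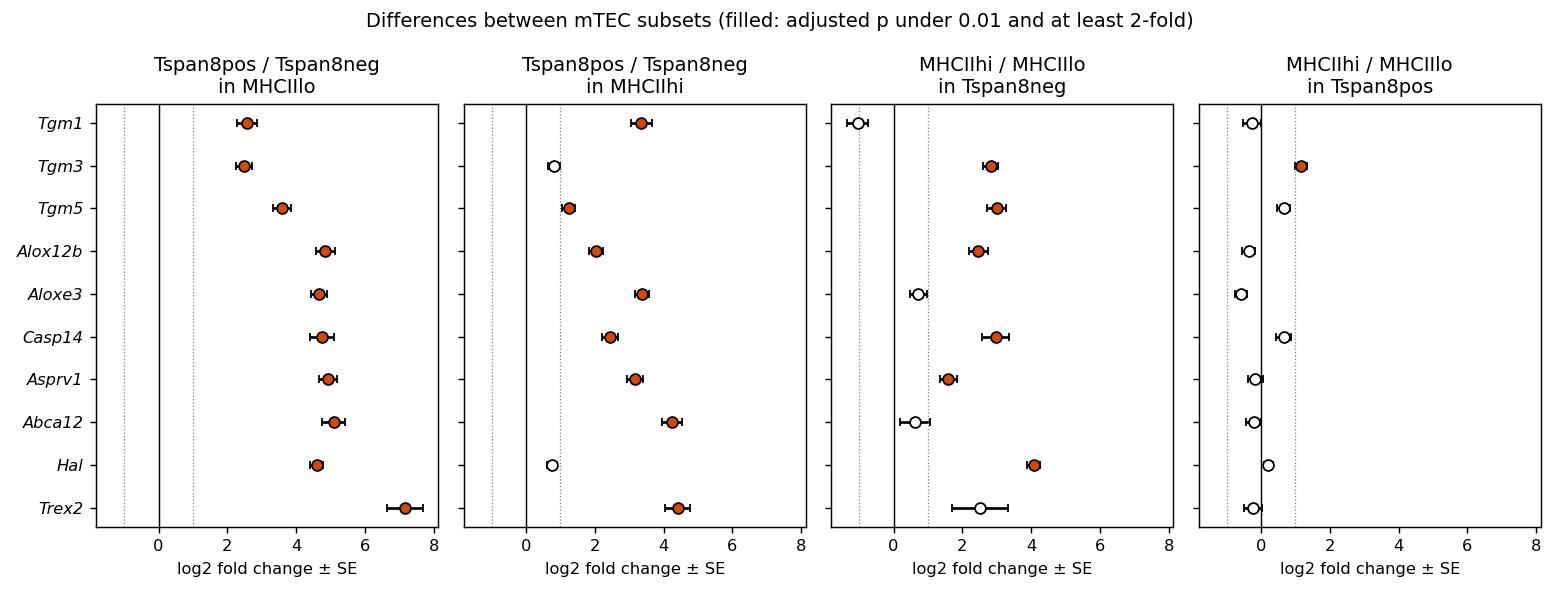
Log2 fold change with its standard error for the 10 skin barrier enzymes in 4 comparisons between mTEC subsets, filled where called and open where not, with dotted lines at the 2-fold limits. All 10 points are filled within MHCIIlo, Tgm3 and Hal are open within MHCIIhi, and in Tspan8pos mTECs only Tgm3, at 1.15, is filled in the MHCII comparison.

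The difference between the 2 Tspan8 comparisons was tested as an interaction, the Tspan8 log2 fold change within MHCIIlo minus that within MHCIIhi. It was called for 6 of the 10 enzymes, each with the larger Tspan8 difference at low MHCII, at a background of 2.36 percent of genes called in that direction and 2.24 percent in the other (4.6 percent in all). The interaction was 3.86 ± 0.24 on the log2 scale for Hal (adjusted p = 8.47e-05), 2.82 ± 0.35 for Alox12b (adjusted p = 0.000777), 2.34 ± 0.33 for Tgm5 (adjusted p = 0.00172), 2.31 ± 0.46 for Casp14 (adjusted p = 0.00907), 1.75 ± 0.33 for Asprv1 (adjusted p = 0.00651) and 1.67 ± 0.29 for Tgm3 (adjusted p = 0.00438, edgeR). These are the genes that were higher at high MHCII in Tspan8neg mTECs, which follows from the same 4 means. Aloxe3 had 1.30 ± 0.30 (adjusted p = 0.0178), Abca12 0.84 ± 0.49 (adjusted p = 0.306) and Trex2 an adjusted p of 0.0595, and none of them was called. The value of Trex2 ran from 1.90 to 6.24 with 1 library left out at a time. Tgm1, at -0.78 ± 0.41 (adjusted p = 0.253), had the opposite sign, and without replicate 2 of Tspan8negMHCIIlo it was called at -1.27 (adjusted p = 0.00578) and without replicate 1 it was -0.16. Without replicate 1 of that subset, Aloxe3 was called at 1.62 (adjusted p = 0.00438). Hal and Alox12b were called whichever library was left out. Tgm5 lost the call when any 1 of 3 of the 8 libraries was left out, Tgm3 and Asprv1 with any 1 of 6 and Casp14 with any 1 of 7, at log2 values from 1.53 to 2.46 and adjusted p values from 0.0105 to 0.0388 (edgeR). For Casp14 these include replicate 1 of Tspan8negMHCIIlo, without which the value was 1.90 (adjusted p = 0.0263). Without replicate 2 of that subset the values were 3.45 for Alox12b, 2.95 for Casp14 and 2.34 for Asprv1.

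**Figure D4:**
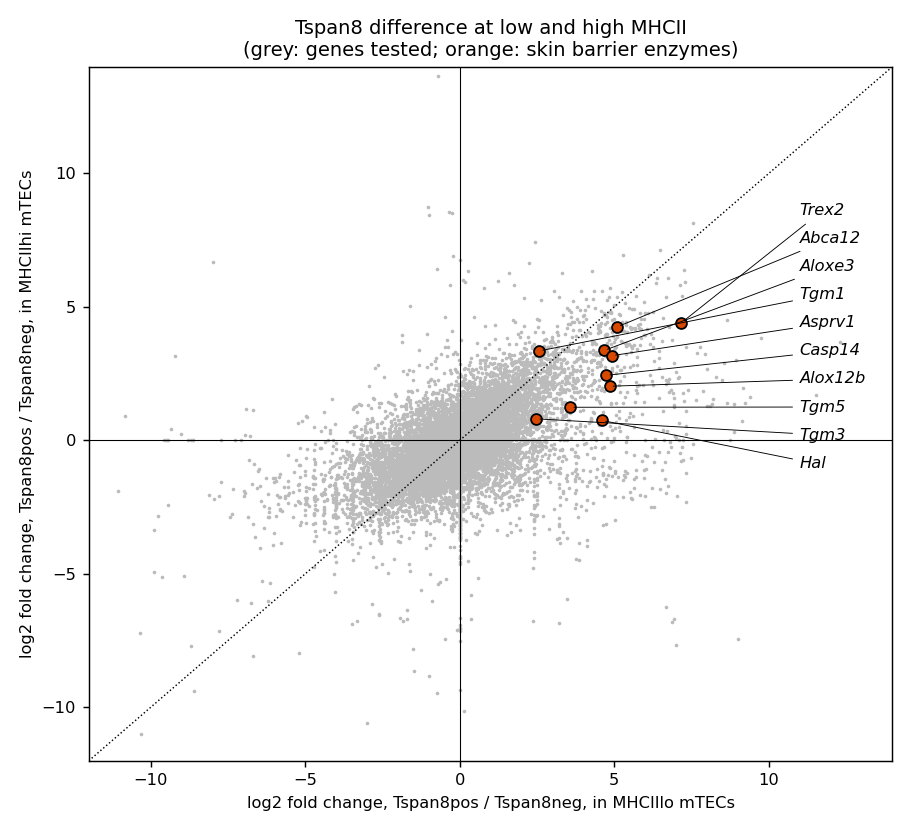
Log2 fold change between Tspan8pos and Tspan8neg mTECs within MHCIIlo (x axis) and within MHCIIhi (y axis) for the 17006 genes tested (grey) and the 10 skin barrier enzymes (orange, named), with a dotted line of equal values. Tgm1 (2.57 and 3.35) is the only enzyme above the line, and Hal (4.61 and 0.75) is the farthest below it.

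The order of the subsets differed among the enzymes, and neighbours in it were often not separated. Alox12b, Aloxe3, Asprv1, Abca12 and Trex2 had the order Tspan8posMHCIIlo, Tspan8posMHCIIhi, Tspan8negMHCIIhi and Tspan8negMHCIIlo from high to low, but in none of them was the first step called (adjusted p from 0.0407 to 0.687). Tgm5, Casp14 and Hal had their highest mean in Tspan8posMHCIIhi, again without a called difference from Tspan8posMHCIIlo. Tspan8posMHCIIlo exceeded Tspan8negMHCIIhi for 7 of the 10, at a background of 14.7 percent called higher and 14.6 percent lower (29.3 percent in all), and the 3 that were not called were Tgm3 (log2 -0.34 ± 0.18, adjusted p = 0.133), Tgm5 (0.59 ± 0.19, adjusted p = 0.0259) and Hal (0.53 ± 0.14, adjusted p = 0.00936, edgeR). Tspan8posMHCIIhi exceeded Tspan8negMHCIIlo for all 10, at a background of 14.4 percent called higher and 10.3 percent lower (24.7 percent in all). All these comparisons draw on the same 8 libraries and are not independent of each other.

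Where the enzymes moved together, the bases before their transcription starts could be set side by side. RefSeq starts on GRCm38.p6 were matched for 9 of the 10 genes, all but Aloxe3, with 2 starts for Tgm1. The 250 bases before each start were searched on both strands for short motifs that do not contain one another. These were AGGAAG (a form of the letters read by Ets factors), CCACCC (Kruppel-like factors), TGANTCA (AP-1), AACNNGTT (Grainyhead factors) and TATAAA (the TATA box). Hal and Tgm3, the enzymes with the smallest Tspan8 difference within MHCIIhi, are shown first, then Asprv1 and Trex2, as examples with CCACCC matches. Each is written 5′ to 3′ on the gene's strand up to the base before the start, with the motif letters found in capitals.
Hal, chr10:93488518-93488767, plus strand: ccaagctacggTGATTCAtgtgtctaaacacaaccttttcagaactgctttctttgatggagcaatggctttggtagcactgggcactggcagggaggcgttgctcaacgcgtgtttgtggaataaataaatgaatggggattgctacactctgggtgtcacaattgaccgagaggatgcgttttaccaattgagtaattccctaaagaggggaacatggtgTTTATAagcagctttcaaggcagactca
Tgm3, chr2:130012090-130012339, plus strand: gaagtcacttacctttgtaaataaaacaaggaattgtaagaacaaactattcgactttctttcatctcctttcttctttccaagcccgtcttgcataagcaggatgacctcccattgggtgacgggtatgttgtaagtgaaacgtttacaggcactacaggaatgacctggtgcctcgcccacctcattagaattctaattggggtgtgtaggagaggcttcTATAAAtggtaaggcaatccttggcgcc
Asprv1, chr6:86627924-86628173, plus strand: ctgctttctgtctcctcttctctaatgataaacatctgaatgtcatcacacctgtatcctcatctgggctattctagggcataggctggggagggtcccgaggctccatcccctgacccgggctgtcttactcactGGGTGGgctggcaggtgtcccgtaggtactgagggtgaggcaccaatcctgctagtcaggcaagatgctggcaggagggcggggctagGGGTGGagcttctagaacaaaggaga
Trex2, chrX:73435344-73435593, minus strand: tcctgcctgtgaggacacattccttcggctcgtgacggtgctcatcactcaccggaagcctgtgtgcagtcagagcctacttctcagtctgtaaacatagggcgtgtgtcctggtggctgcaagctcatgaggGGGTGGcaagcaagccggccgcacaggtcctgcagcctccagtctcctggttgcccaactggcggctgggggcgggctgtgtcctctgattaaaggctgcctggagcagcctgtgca

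TATAAA was found before Tgm3 on the gene's strand and before Hal as its reverse complement, in each case with the first base at position -28 relative to the start, and before none of the other 7 genes searched. The same letters occur in 12.4% of the 32851 RefSeq windows of this length. CCACCC or its reverse complement was found before Asprv1 (2 times), Casp14 (2 times), Trex2 and both starts of Tgm1. These are 4 of 9 genes, which have 10 windows. The share of all windows was 28.1%, which is counted per window and not per gene. TGANTCA was found before Hal alone, from position -239, and occurs in 6.75% of windows. AGGAAG (29.5% of windows) and AACNNGTT (3.64%) were found before none of the 9. Other forms of the letters read by Ets factors were not searched for. The Trex2 window, for example, holds CGGAAG, which differs from AGGAAG in its first base. Abca12, Tgm5 and Alox12b held none of the 5 motifs. These matches describe letters in a short window and do not show that a factor binds there.

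Transcripts of most of the proteins that transglutaminases join were higher in the Tspan8pos subsets. Of 28 tested substrates of the cornified envelope, 25 were higher in Tspan8pos mTECs within MHCIIlo and 21 within MHCIIhi, and none was lower in either. The most abundant was Dsp, a desmosomal plakin, with log2 fold changes of 1.89 within MHCIIlo and 2.31 within MHCIIhi. Krt10, a keratin of the suprabasal epidermis, had 5.20 and 4.69, Rptn, repetin, 4.29 and 3.61, and Sprr1a, a small proline-rich protein, 4.35 and 2.18. Between MHCII levels, 10 substrates were higher and 2 lower at high MHCII in Tspan8neg mTECs, and 1, Cdsn, was lower in Tspan8pos mTECs. The shares of all genes given above are the background of this and the following lists, 12.1 and 11 percent higher for Tspan8 within MHCIIlo and MHCIIhi, 13.1 percent higher and 9.67 percent lower for MHCII in Tspan8neg mTECs, and 4.59 percent higher and 2.62 percent lower for MHCII in Tspan8pos mTECs. Sprr2 genes resemble each other closely, and reads of near-identical members could have been split among them by the quantification.

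Genes of acylceramide synthesis and the lipid envelope, among them Alox12b, Aloxe3 and Abca12, were called higher for 22 of 25 within MHCIIlo and for 22 of 25 within MHCIIhi, and none was lower. Of the other 22, 19 were higher in each. Dgat2, an acyltransferase, had log2 fold changes of 3.06 and 1.54, and Elovl1, a fatty acid elongase, 1.57 and 1.39. Sptlc2, a subunit of serine palmitoyltransferase, had 1.19 within MHCIIlo, where it was called, and 0.53 within MHCIIhi, where it was not. At high MHCII, 5 of the 25, Alox12b among them, were higher in Tspan8neg mTECs (13.1 percent of all genes) and 1 of the 25 in Tspan8pos mTECs (4.59 percent).

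For filaggrin processing and natural moisturizing factor, the list that holds Asprv1, Casp14 and Hal, 13 of 19 tested genes were higher and 1 lower in Tspan8pos mTECs within MHCIIlo, and 8 were higher and 2 lower within MHCIIhi. Hrnr, hornerin, had log2 fold changes of 5.85 and 3.84, and Klk7, a kallikrein of the stratum corneum, 6.46 and 3.08. St14, the protease matriptase, was not called in either (0.86 and 0.42). Hdc, histidine decarboxylase, which spends histidine in another way than Hal, was lower in Tspan8pos mTECs, at -1.71 and -2.26. In Tspan8neg mTECs 10 of the 19 were higher at high MHCII (13.1 percent of all genes) and none was lower. In Tspan8pos mTECs 2 were higher (4.59 percent), Hdc and Amdhd1, and 2 lower (2.62 percent), Klk7 and Flg2.

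Among 7 tested transglutaminases, Tgm1, Tgm2, Tgm3 and Tgm5 were higher in Tspan8pos mTECs within MHCIIlo, and Tgm2 had log2 fold changes of 1.86 and 2.27 within MHCIIlo and MHCIIhi. Epb42, a catalytically inactive family member of the red cell membrane, was lower in Tspan8pos mTECs within MHCIIhi (-1.73) and higher at high MHCII in Tspan8neg mTECs (5.31), from 0 and 1.41 CPM in the Tspan8negMHCIIlo libraries. Tgm7 was called in the same direction there, from 0 and 0.28 CPM to 7.95 and 8.53 CPM. F13a1, a subunit of clotting factor XIII, was not called in either Tspan8 comparison (-1.43 and -1.14). Among 7 lipoxygenases, 5 were higher within MHCIIlo and 4 within MHCIIhi. Alox5, which starts leukotriene synthesis, was higher in Tspan8pos mTECs (2.37 and 2.76) and lower at high MHCII in both Tspan8 states (-3.13 and -2.75), Alox8 was higher within MHCIIlo (2.85) and not called within MHCIIhi (0.71), and the abundant Alox12e (0.55 and -0.01) and Alox15 (0.40 and 0.27) were not called in either.

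Of 10 caspases, 3 were higher within MHCIIlo (12.1 percent of all genes) and 2 within MHCIIhi (11 percent), with Casp14 in both, and Casp8 (-0.28 and 0.26) and Casp4 (0.60 and -0.05) were not called. Casp1 was higher within MHCIIlo (1.52) and not called within MHCIIhi (0.15). Of 9 tested Abca transporters, 4 were higher in each Tspan8 comparison, Abca12 included, and 1 was lower within MHCIIhi, where Abca3, the transporter of lung surfactant lipids, had 1.62 after 2.17 within MHCIIlo, and Abca1 had 1.69 after an uncalled 0.59. Abca7 (0.65 and 0.43) and Abca2 (0.48 and 0.96) were not called. Of 10 tested nucleases, 4 were higher within MHCIIlo and 3 within MHCIIhi, with Trex2 in both, against the same 12.1 and 11 percent. Trex1, its closest relative, had -0.19 and 0.11 and Samhd1 0.14 and 0.05, neither called, Dnase1l3 was called within MHCIIlo (3.18, and 0.29 within MHCIIhi) and Dnase2a within MHCIIhi (1.15, and 0.74 within MHCIIlo).

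Of 21 transcription factors of epidermal differentiation, 15 were higher and 1 lower in Tspan8pos mTECs within MHCIIlo, and 14 were higher and 1 lower within MHCIIhi. Klf4 had log2 fold changes of 1.48 and 2.00, Elf3 of 2.56 and 2.22 and Ehf of 1.86 and 1.57, all called. At high MHCII in Tspan8neg mTECs, 5 were higher and 2 lower, where 13.1 and 9.67 percent of all genes were, so that the lower count was near the background, and in Tspan8pos mTECs none was higher and 1, Ehf, was lower (-1.09).

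**Figure D5:**
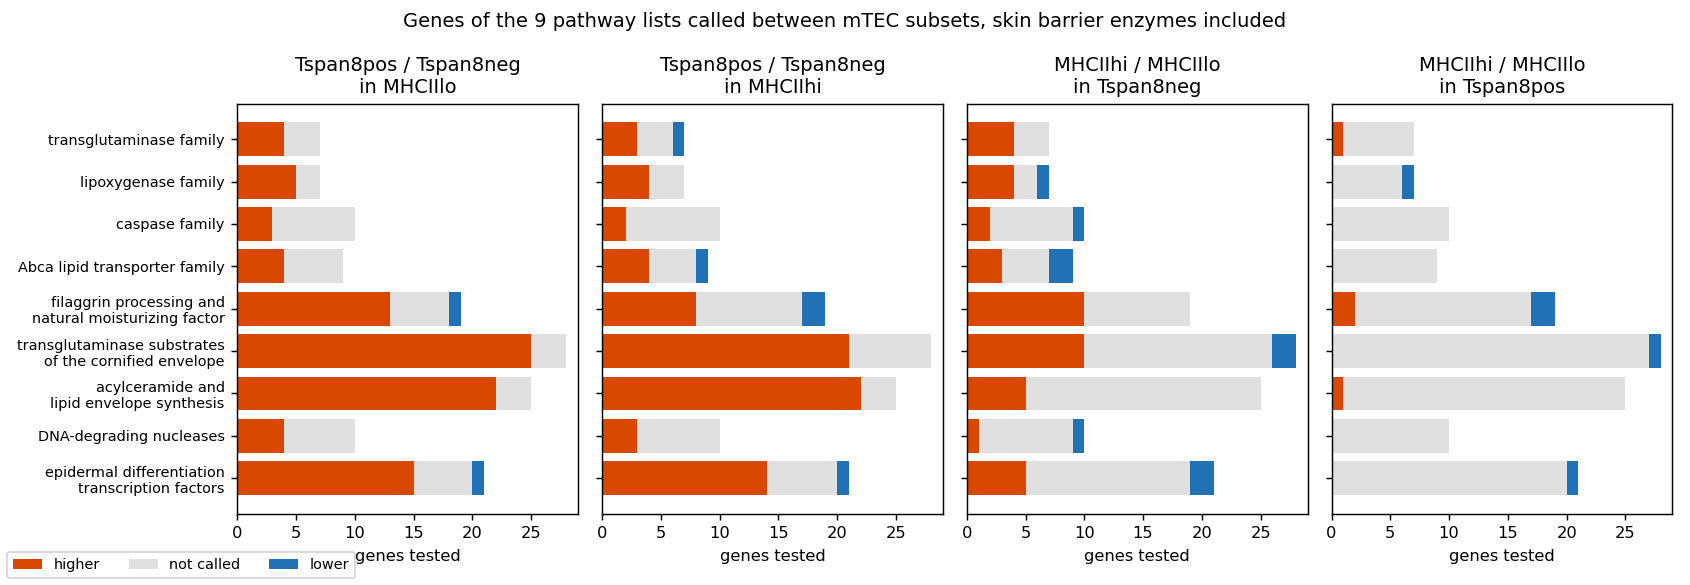
Number of tested genes of 9 pathway lists (the 10 enzymes included) that were called higher, not called or called lower in 4 comparisons between mTEC subsets. Higher genes make up 25 of 28 envelope substrates and 22 of 25 lipid genes within MHCIIlo, and few genes of any list are called between MHCII levels in Tspan8pos mTECs.

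Among the genes with the level pattern nearest to the mean of the 10 enzymes, by Pearson r over the 8 libraries among 11038 genes with at least 10 CPM on average, were Cxcl3 (0.998), Defb6 (0.998), AA986860 (0.998) and Slurp1 (0.996). For single enzymes the nearest gene was Myl7 for Tgm3, Lypd2 for Tgm5, Sulf2 for Alox12b, Fam98a for Aloxe3, Abcd3 for Casp14, Ptgr1 for both Asprv1 and Trex2, Mindy2 for Abca12 and Chit1 for Hal, with r from 0.995 to 0.998. The 8 points are 4 pairs from the same subsets, so that any gene with similar subset means has a high r, and no p is given.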

How the data were processed

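Libraries were grouped by subset and replicate number as the sample descriptions give them. The values are estimated counts per gene, whole numbers that the authors deposited without normalization in a single table. Salmon 1.8.0 on the Gencode vM10 transcriptome and DESeq2 1.30.0 are the tools the sources name. The library kit is described differently in the labels and in the methods, so the use of strand is not settled. Symbols and coordinates came from GENCODE vM21 (GRCm38), which matched 25336 gene identifiers (99.49%) and left 130 without a symbol.

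Counts were tested in R 4.3.3 with edgeR 4.0.16 (quasi-likelihood, TMM, filterByExpr on the 4 subsets, 1 mean per subset, all 8 libraries). P-values are two-sided and adjusted over 17006 genes by the Benjamini-Hochberg method. The common dispersion was 0.0240, and each standard error was obtained from the log2 fold change and its F statistic. The thresholds, an adjusted p of 0.01 and a 2-fold difference, are those drawn in the volcano plots of the study. The scripts were tested on simulated data. Intervals and the floor of 3 counts cover counting error only, as PCR duplicates cannot be told from separate molecules.

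The 10 enzymes, the pathway lists and the tests were chosen with earlier results of these data known. All 10 are named in every comparison. Besides them, the 4 other tested genes of each list with the highest mean CPM are named, and, for likeness, the gene nearest to each enzyme and the 5 nearest to their mean, and a few genes that this rule names are not reported here. Cdsn, Flg2, Amdhd1, Uroc1 and Dnase1l2 were named after their values were seen. Alternatives were DESeq2 1.42.0, its size factors in edgeR, other filters on low counts, the replicate number as a block, thinning to the smallest library, the 4 libraries of a comparison alone, other thresholds, merged exons as gene length and leaving out each library. The replicates are described as biological, but separate mice are not stated, so p-values measure the spread between these samples, part of which may be technical.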

Additional observations from a re-analysis of the deposited data

Results flagged for a closer look

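The Tspan8 difference of 6 enzymes was larger at low than at high MHCII by the interaction in the edgeR fit of all 8 libraries, with log2 values of 3.86 for Hal, 2.82 for Alox12b, 2.34 for Tgm5, 2.31 for Casp14, 1.75 for Asprv1 and 1.67 for Tgm3. In Hal the mean CPM went from 7.73 to 132 between the Tspan8neg subsets and from 189 to 221 between the Tspan8pos subsets. The 2.36 percent of all tested genes called in this direction is the background of these 6 of 10. The 2 libraries of a subset are too few to tell which of them is outlying, and no test for outlying samples was made. Each library was left out in turn, and of these 6 enzymes only Hal and Alox12b kept the call throughout.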

How the results depend on the processing

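Of 1159 values of an enzyme in a comparison under an alternative setting, 1118 kept their direction and their side of the thresholds, 28 lost the call, 12 gained one and 1 changed sign, Abca12 between MHCII levels in Tspan8pos mTECs (-0.21, and -0.50 to 0.037 with 1 library left out, the highest without replicate 2 of Tspan8posMHCIIhi), which was called in neither. With 1 library left out at a time, the lone sample of its subset being assumed to vary like the others, the enzymes called numbered 10 within MHCIIlo, 7 to 8 within MHCIIhi, 6 to 7 between MHCII levels in Tspan8neg mTECs, 0 to 1 in Tspan8pos mTECs, 2 to 7 for the interaction, 7 for Tspan8posMHCIIlo against Tspan8negMHCIIhi and 10 for Tspan8posMHCIIhi against Tspan8negMHCIIlo. The interaction counted 3 without either Tspan8negMHCIIhi library or replicate 1 of Tspan8posMHCIIlo, and 2 without either Tspan8posMHCIIhi library or replicate 2 of Tspan8posMHCIIlo. Over all tested genes its calls numbered 783 in the fit reported, 189 to 1385 with a library left out, 1267 with no filter on low counts and 1236 with the replicate block. The calls of all tested genes in the fit reported numbered 3640 within MHCIIlo, 3143 within MHCIIhi, 3866 in Tspan8neg and 1226 in Tspan8pos mTECs. Fits without 1 library had their own sets of tested genes. They called fewer or more genes depending on the library, but only fewer between MHCII levels in Tspan8neg mTECs. For the interaction, Casp14 lost the call with DESeq2 (adjusted p = 0.0186) and both Casp14 (adjusted p = 0.0272) and Tgm3 (adjusted p = 0.0293) did with thinning.

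Whether the replicate numbers pair the libraries is not known from the sources. The correlations of same-numbered deviations, all positive, ran from 0.00402 to 0.0924. They cannot decide the question, since noise in single genes lowers such correlations, and the fit reported treats the libraries as unpaired. With the replicate block, Aloxe3 gained the interaction call (1.34, adjusted p = 0.00597), as it did with DESeq2 (1.37, adjusted p = 0.00308) and without a filter (1.37, adjusted p = 0.00306), and no other call of an enzyme changed with the block. Depth limits Trex2 and Casp14 in Tspan8negMHCIIlo, where 2 and 7 counts in all were found.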

Other observations

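Genes of histidine breakdown next to Hal were at low levels and had their highest mean in Tspan8negMHCIIhi, a pair of genes named after their values were seen. Amdhd1, whose product acts after urocanate hydratase, was at 13.8 ± 0.81 CPM (SD, n = 2) in Tspan8negMHCIIhi, at 3.71 ± 1.51 CPM in Tspan8posMHCIIhi, at 0.92 ± 0.29 CPM in Tspan8negMHCIIlo and at 0.48 ± 0.099 CPM in Tspan8posMHCIIlo, and it was lower in Tspan8pos mTECs within MHCIIhi (log2 -1.88, adjusted p = 0.0034, edgeR). Uroc1, urocanate hydratase, had no count in either Tspan8negMHCIIlo library and was at 4.55 ± 0.27 CPM in Tspan8negMHCIIhi, 2.11 ± 0.11 CPM in Tspan8posMHCIIhi and 1.23 ± 0.19 CPM in Tspan8posMHCIIlo. Uroc1 was called higher in Tspan8pos mTECs within MHCIIlo and at high MHCII in Tspan8neg mTECs, as Hal was. It was not called for Tspan8 within MHCIIhi. The means of Hal were highest in the Tspan8pos subsets, though neither was called against Tspan8negMHCIIhi. The order of the means thus differed along the pathway, but among Hal, Uroc1 and Amdhd1 only Amdhd1 was called lower in Tspan8pos mTECs.

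Dnase1l2, the keratinocyte DNase, was, like Trex2, higher in both Tspan8 comparisons (log2 2.73 within MHCIIlo and 3.77 within MHCIIhi, adjusted p = 2.28e-06 and 6.5e-07) but was lower at high MHCII in Tspan8neg mTECs (-1.70, adjusted p = 0.000445, edgeR). Its mean was 10.5 ± 1.8 CPM in Tspan8negMHCIIlo and 3.23 ± 0.15 CPM in Tspan8negMHCIIhi.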
